A study of Mus musculus with 6 samples.

Results

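The immunity-related GTPases (IRGs) described here are 7 mouse genes, Irgm1, Igtp, Irgm2, Iigp1, Tgtp1, Tgtp2 and Ifi47, taken by name from 19949 genes measured in colon. All 7 were detected in every library and all 7 were tested. The colons came from BALB/c mice labelled STAT6-/-, mutant for the transcription factor of interleukin-4 and interleukin-13 signalling, and from wild-type (WT) BALB/c mice. All mice were 6 to 8 weeks old and had drunk 3% dextran sulfate sodium (DSS), which injures the colonic epithelium, for 3 days, so no group without DSS enters the comparison. Content and mucus had been scraped off before total RNA was taken from the washed colon pieces. Each genotype had 3 libraries. Separate mice are not named for the replicates in the labels, and p-values accordingly reflect only the variation among these libraries, part of which may be technical.

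The libraries were first set against their labels. Stat6, the targeted gene, stood at 49.9, 38.5 and 53.2 CPM (counts relative to library size, after TMM scaling) in STAT6-/- libraries, against 91.7, 104 and 88.8 CPM in WT libraries. Its transcripts were lower but still counted in the mutants, with a log2 fold change of -1.01 ± 0.16 (SE; edgeR adjusted p = 0.0134), and the call was lost without WT replicate 2 or WT replicate 3. Genotype went with sex. The 4 Y-linked genes examined summed to 166 to 179 CPM in STAT6-/- libraries and at most 0.124 CPM in WT, and Xist stood at 0.264 to 0.992 CPM in STAT6-/- and 352 to 545 CPM in WT. Effects of genotype and sex therefore cannot be told apart in any comparison below.

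IRGs are interferon-inducible GTPases that act inside the cell. Interferon gamma, made by T cells and natural killer cells, signals through its receptor and the Janus kinases to transcription factors that switch on IRG promoters. The proteins fall into a pair of classes named after residues of the nucleotide-binding loop. The GMS class (Irgm1, Igtp, Irgm2) sits on the cell's own membranes and holds the other class inactive there. The GKS class (Iigp1, Tgtp1, Tgtp2, Ifi47) is the effector class, whose best studied members coat the vacuoles of intracellular parasites such as Toxoplasma and break them. In mice, loss of Irgm1 is known to worsen DSS colitis, and variants near human IRGM are linked to Crohn's disease.

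The members' start regions are shown first because most of them share an arrangement of short motifs for the factors that respond to interferon. RefSeq promoters (build GRCm38.p6) were matched by symbol for 6 of the 7 genes, all of them on chromosome 11, and Iigp1 was not matched. Each line below gives the 120 bases before the annotated transcription start, 5′ to 3′ on the strand of the gene. Capitals mark matches to GAAANNGAAA, the core of the interferon-stimulated response element, and to TTCNNNGAA, the core of the gamma-activated site, both searched on both strands. The windows are chr11:48871421-48871540 (minus strand) for Irgm1, chr11:58199436-58199555 (plus strand) for Igtp, chr11:58214857-58214976 (plus strand) for Irgm2, chr11:48992247-48992366 (minus strand) for Tgtp1, chr11:49064213-49064332 (minus strand) for Tgtp2 and chr11:49076467-49076586 (plus strand) for Ifi47.
Irgm1: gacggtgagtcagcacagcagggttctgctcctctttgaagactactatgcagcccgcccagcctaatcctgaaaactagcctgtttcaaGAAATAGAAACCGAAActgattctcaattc
Igtp: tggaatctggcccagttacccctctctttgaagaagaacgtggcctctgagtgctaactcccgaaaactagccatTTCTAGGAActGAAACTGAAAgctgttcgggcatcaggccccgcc
Irgm2: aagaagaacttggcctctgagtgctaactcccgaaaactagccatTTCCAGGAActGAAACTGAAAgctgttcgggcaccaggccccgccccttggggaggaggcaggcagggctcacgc
Tgtp1: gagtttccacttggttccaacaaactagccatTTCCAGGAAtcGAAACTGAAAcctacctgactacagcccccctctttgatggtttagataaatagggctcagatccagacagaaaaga
Tgtp2: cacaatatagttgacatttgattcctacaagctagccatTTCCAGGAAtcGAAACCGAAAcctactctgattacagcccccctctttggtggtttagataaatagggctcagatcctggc
Ifi47: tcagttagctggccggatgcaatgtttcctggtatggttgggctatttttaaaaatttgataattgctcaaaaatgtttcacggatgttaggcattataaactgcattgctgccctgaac

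In Igtp, Irgm2, Tgtp1 and Tgtp2 the TTCNNNGAA match came first and the GAAANNGAAA match started 11 bases downstream of its first base. The GAAANNGAAA match began 34 bases before the start of Igtp, 64 before that of Irgm2, 77 before that of Tgtp1 and 70 before that of Tgtp2. Irgm1 held 2 overlapping GAAANNGAAA matches, 30 and 24 bases before its start, and no TTCNNNGAA. Neither motif was in the Ifi47 window, which says only that these letters are not before this annotated start.

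Of all 32851 promoters in the table, each running from 250 bases before a start to 50 after it, 3.44% held GAAANNGAAA and 8.30% held TTCNNNGAA. The pair with starts 11 bases apart was in 5 promoters, those of Igtp, Irgm2, Tgtp1 and Tgtp2 and that of Gm12185, a further IRG gene. The spacing was read from these promoters, and the genes are copies of one another, so the pair describes what they share. Another motif, TTCNNNNGAA, the wider spacing that STAT6 prefers, was in 0 of the 6 member promoters and in 6.95% of all promoters. With only 6 promoters, 0 cannot be told apart from that share. A match is a description of the letters and not evidence of binding.

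The levels of the family were higher in the STAT6-/- colons. Of the 7 members, 5 rose at an adjusted p below 0.05 (quasi-likelihood F test of edgeR, adjustment by Benjamini and Hochberg over 15066 genes), namely Irgm1, Igtp, Irgm2, Tgtp2 and Ifi47, where 11.4% of all tested genes were called higher. The groups did not overlap for these 5, where 22.0% of all tested genes lay higher in every STAT6-/- library than in any WT library. The median log2 fold change of the 7 members was 3.17, a 9.03-fold difference, and the median over all tested genes was 0.01. Iigp1 and Tgtp1 had fold changes as large as those of the others but did not pass, and for both of them STAT6-/- replicate 2 lay below WT replicate 2. In bulk tissue, more cells of a type and more RNA per cell cannot be told apart.

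Among the GMS regulators, Igtp (Irgm3, a protein of the endoplasmic reticulum; chromosome 11, 58199556 to 58207592, mm10) stood at 444, 125 and 303 CPM in STAT6-/- replicates 1, 2 and 3, against 14.1, 89.2 and 16.2 CPM in WT replicates 1, 2 and 3. The groups did not overlap, though STAT6-/- replicate 2 and WT replicate 2 lay close to each other. Igtp rose 7.31-fold, with a log2 fold change of 2.87 ± 0.84 (SE; edgeR adjusted p = 0.0486).

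Irgm1, the regulator found on Golgi membranes (chromosome 11, 48865245 to 48871420), stood at 357, 141 and 287 CPM in the STAT6-/- libraries, against 44.1, 127 and 51.3 CPM in the WT libraries. The groups did not overlap, and the lowest STAT6-/- library was barely above the highest WT library. Irgm1 had the smallest change of the family, 3.53-fold (log2 fold change 1.82 ± 0.50, edgeR adjusted p = 0.0426). Its WT level was also the highest of the 7 per length, at 19.4 to 52.4 FPKM.

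Irgm2, the other Golgi regulator (chromosome 11, 58214977 to 58222783), stood at 291, 152 and 287 CPM in STAT6-/- colons, against 23.5, 69.9 and 28.2 CPM in WT colons. Here the gap between the lowest STAT6-/- and the highest WT library was wider. Irgm2 rose 6.01-fold (log2 fold change 2.59 ± 0.48, edgeR adjusted p = 0.0168), the smallest p of the family.

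Among the GKS effectors, Ifi47 (Irgd; chromosome 11, 49076587 to 49096987) stood at 254, 113 and 196 CPM in the STAT6-/- libraries, against 8.75, 40.6 and 8.74 CPM in the WT libraries. The groups were well apart. Ifi47 rose 9.70-fold (log2 fold change 3.28 ± 0.69, edgeR adjusted p = 0.0222).

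Iigp1 (Irga6, an effector that assembles on parasite vacuoles; chromosome 18, 60373616 to 60392634) stood at 464, 42.7 and 291 CPM in the STAT6-/- libraries, against 6.39, 59.2 and 7.32 CPM in the WT libraries. STAT6-/- replicate 2 was below WT replicate 2, so the groups overlapped, while the other libraries differed widely. Its log2 fold change was 3.45 ± 1.16 (edgeR adjusted p = 0.0704), which did not pass.

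Tgtp1 and Tgtp2 (Irgb6; chromosome 11, 48985329 to 48992246 and 49057196 to 49064212) are near-identical neighbours, so the division of reads between them is uncertain. Tgtp1 stood at 321, 33.2 and 139 CPM in STAT6-/- colons, against 2.60, 43.2 and 4.93 CPM in WT colons (log2 fold change 3.28 ± 1.22, edgeR adjusted p = 0.0913). Tgtp2 stood at 173, 19.5 and 80.1 CPM in STAT6-/- colons, against 7.45, 17.4 and 5.39 CPM in WT colons, and rose 9.03-fold (log2 fold change 3.17 ± 0.82, edgeR adjusted p = 0.0348). Tgtp1 took 63.0% to 64.9% of the counts of the pair in the STAT6-/- libraries and 25.9%, 71.2% and 48.0% in WT replicates 1, 2 and 3. With the pair summed as 1 gene, the levels were 494, 52.7 and 219 CPM in STAT6-/- against 10.1, 60.7 and 10.3 CPM in WT. The sum had a log2 fold change of 3.24 ± 1.02 (edgeR adjusted p = 0.0599) and overlapped between the groups, so Tgtp2 passed as deposited and the pair as a sum did not.

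**Figure D1:**
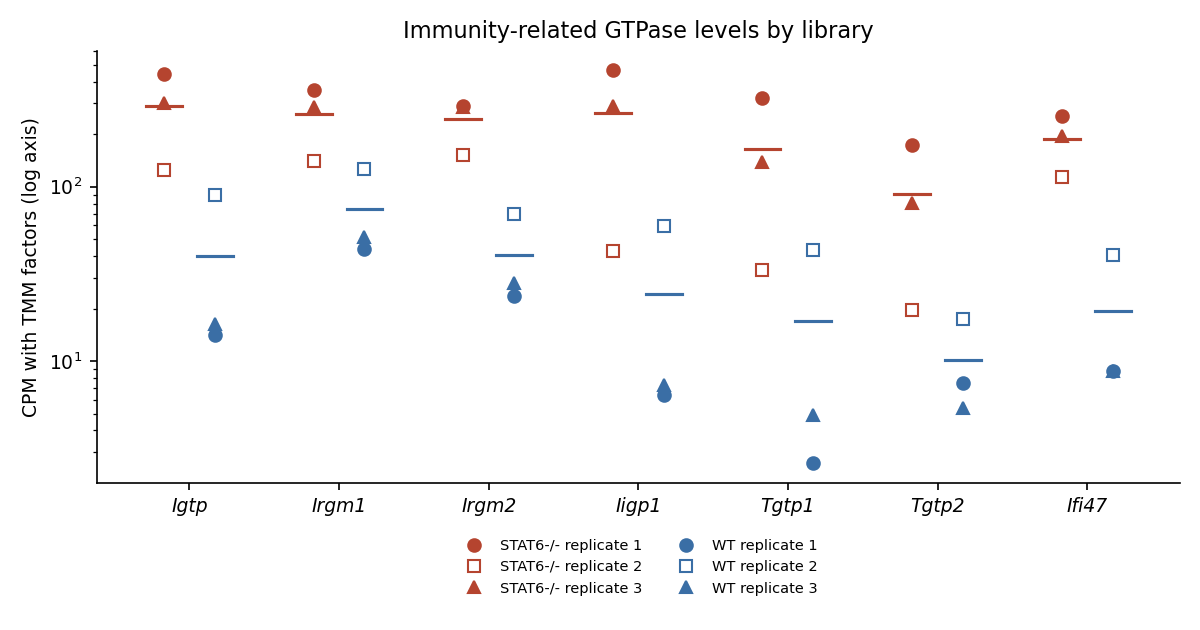
Level of each IRG gene in CPM with TMM factors (log axis) in the 3 STAT6-/- and 3 WT libraries, 1 symbol per replicate and a line at the group mean. STAT6-/- replicate 2 and WT replicate 2, drawn as open squares, approach each other in every gene, and for Iigp1 and Tgtp1 the WT square is the higher one.

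The 7 genes shared most of their order of libraries. STAT6-/- replicate 1 was the highest and STAT6-/- replicate 2 the lowest of its group for all 7 members. WT replicate 2 was the highest WT library for all 7. Over the 6 libraries the log2 CPM of the members correlated with one another at a Pearson r of 0.927 to 0.996 over 21 pairs, a description that includes the difference between genotypes.

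WT replicate 2 stood at 2.66 (Irgm1) to 11.5 (Tgtp1) times the mean of WT replicates 1 and 3, with a median of 4.65 over the members and 1.03 over the 14955 genes with counts in all libraries. Of those 14955 genes, 42, the 7 members included, had a ratio of 2.66 or more. STAT6-/- replicate 2 stood at 0.113 (Iigp1) to 0.527 (Irgm2) of the mean of STAT6-/- replicates 1 and 3, with a median of 0.334 over the members and 0.988 over all these genes. Of the 14955 genes, 2122 had a ratio of 0.527 or less, so many genes outside the family were also low in STAT6-/- replicate 2. That library also stood apart from its group on the first principal component of all tested genes (61.4% of the variance), at -21.7 against -85.6 and -68.7 for STAT6-/- replicates 1 and 3, with WT libraries at 47.8 to 67.3. Iigp1 and Tgtp1 thus had the most extreme of these ratios among the members in both genotypes. Tgtp2 was also low in STAT6-/- replicate 2, at 0.154 of the other libraries of its group, but its ratio in WT replicate 2 was 2.72, close to those of Irgm1 and Irgm2.

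Calls therefore depended on single libraries. Without STAT6-/- replicate 2, all 7 members were called higher, with 17.9% of all genes. Without STAT6-/- replicate 1 or 3 the calls were Irgm2 and Ifi47 (backgrounds of 6.81% and 12.5%). Without WT replicate 1 the call was Irgm2 (4.25%), with 5 members at an unadjusted p under 0.05. Without WT replicate 2 the call was Ifi47 (0.136%), though all 7 members had an unadjusted p under 0.05. There the unadjusted edgeR p was smaller than with all libraries for every member but Tgtp2 (0.00696 against 0.006). Without WT replicate 3 no member passed edgeR's test (0.0779%), with 5 members at an unadjusted p under 0.05. All 7 log2 fold changes stayed positive with any library left out, between 1.55 for Irgm1 and 5.44 for Tgtp1. DESeq2 on all libraries called all 7 members, beside 18.0% of all genes. The same 5 members passed with RLE factors (11.9% of all genes called higher), library size alone (12.6%), upper quartile factors (10.1%), a minimum of 1 CPM in 3 libraries (12.0%), no robust estimation (11.6%) and limma on log2 FPKM plus 0.1 (11.2%). Of the 5, 4 passed with no filter (8.55%), limma-voom (9.60%) and limma on log2 FPKM plus 1 (10.4%), and 2, Irgm2 and Ifi47, with a replicate block (8.09%).

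**Figure D2:**
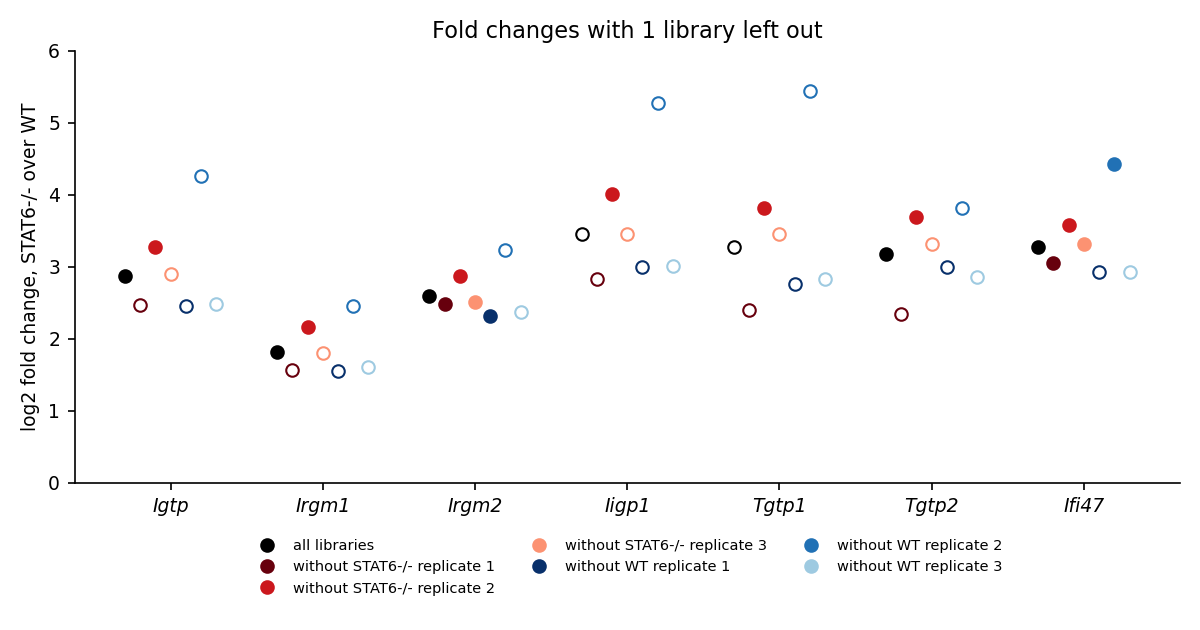
Log2 fold change (STAT6-/- over WT, edgeR) of each IRG gene with all libraries and with 1 library left out in turn. Filled points passed an adjusted p of 0.05 and open points did not. Leaving out WT replicate 2 gave the largest value for every gene, and all values lie above 0.

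Markers of other cells moved with the same libraries. The 9 T and natural killer cell markers summed to 76.4, 14.4 and 47.7 CPM in STAT6-/- replicates 1, 2 and 3, against 15.0, 17.2 and 14.0 CPM in the WT libraries. Of the 8 that could be tested, Cd3e, Gzmb and Tbx21 rose and none fell. Over all tested genes, 11.4% were called higher and 11.5% lower. Cd4 and Cd8a had log2 fold changes of 2.15 and 1.47, and Cd3g, Ncr1 and Klrb1c of 0.21, 0.39 and -0.58. These 5 did not pass edgeR's test. The 7 macrophage markers summed to 1212, 314 and 979 CPM in the STAT6-/- libraries, against 356, 571 and 615 CPM in WT. None of the macrophage markers passed edgeR's test (3 at an unadjusted p under 0.05, and DESeq2 called 3). No marker of either list was at 0 in all libraries. STAT6-/- replicate 2 was thus the lowest library of its group for IRGs and for both marker lists. It was also the lowest for the B cell, endothelial, neutrophil, fibroblast and adipocyte markers below, though not for the epithelial or smooth muscle markers. WT replicate 2, high for IRGs, differed little from the other WT libraries in T and natural killer cell markers. Other lists differed too. The B cell markers summed to 210.0, 17.4 and 34.9 CPM in STAT6-/- replicates 1, 2 and 3, in the order of the IRGs, against 16.6 to 23.8 CPM in WT, and 0 of 3 passed edgeR's test (1 at an unadjusted p under 0.05, and DESeq2 called 2). The endothelial markers summed to 92.0, 46.2 and 118 CPM in STAT6-/- and 25.7 to 41.7 CPM in WT, and of the 4, all at an unadjusted p under 0.05, Vwf rose. The neutrophil markers summed to 626, 453 and 1359 CPM in STAT6-/- and 278 to 389 CPM in WT. Most of this sum was Ly6g, at 581, 437 and 1305 CPM in STAT6-/- and 267 to 359 CPM in WT. S100a8, S100a9 and Cxcr2 stood at no more than 19.2 CPM in any library, so the sum mainly follows 1 gene. The fibroblast markers summed to 1637, 724 and 2873 CPM in STAT6-/- and 1736 to 4859 CPM in WT. None of the 4 neutrophil or 4 fibroblast markers passed edgeR's test (1 of each list at an unadjusted p under 0.05, and DESeq2 called 1 of each). The epithelial markers summed to 10714 to 16769 CPM in STAT6-/- and 6576 to 9378 CPM in WT, and 2 of 6 rose. The smooth muscle markers summed to 1274 to 3076 CPM in STAT6-/- and 4688 to 5877 CPM in WT, and all 3 fell. The adipocyte markers summed to 0.627 to 13.3 CPM in STAT6-/- and 36.7 to 299.8 CPM in WT, and all 3 that could be tested fell. The part of any of these cells in the IRG difference was not tested.

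The colon label was set against marker genes of colon and small intestine. Lypd8, a gene of colonic enterocytes, stood at 11932 to 18155 CPM in STAT6-/- and 19847 to 25804 CPM in WT, and the goblet cell mucin gene Muc2 at 1961 to 3940.4 CPM in STAT6-/- and 1699 to 1817 CPM in WT. Car1, a carbonic anhydrase of the colon surface, fell to 159 ± 59.4 CPM in STAT6-/- against 1675 ± 219.8 CPM in WT (SD, n = 3 each; edgeR adjusted p = 0.00732). Slc26a3, the chloride exchanger, stood at 738, 1608 and 254 CPM in STAT6-/- and 3187, 3373 and 2176 CPM in WT, which did not overlap but did not pass. The 5 small intestine markers summed to 31.0, 33.9 and 72.6 CPM in STAT6-/- replicates 1, 2 and 3, against 11.2 to 14.6 CPM in WT. Of these, Alpi rose (2.19 ± 1.42 against 0.418 ± 0.193 CPM), Fabp6 reached 66.9 CPM in STAT6-/- replicate 3, and Sis and Apoa4 were not tested, at no more than 0.28 CPM in any library. The part of a difference in the stretch of gut sampled was not tested.

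Per length, the make-up of the family also differed between genotypes. Summed over the 7 genes, the STAT6-/- libraries held 1021, 263 and 623 FPKM (fragments scaled to transcript length and library depth), against 43.2, 169.6 and 51.2 FPKM in the WT libraries. The GMS regulators made up 49.0%, 62.9% and 55.4% of this sum in STAT6-/- and 75.5%, 65.0% and 77.7% in WT. The groups did not overlap in this share, but STAT6-/- replicate 2 and WT replicate 2 were close. The GKS effectors made up the rest, 51.0%, 37.1% and 44.6% in STAT6-/- and 24.5%, 35.0% and 22.3% in WT. The library with the highest family total had the largest effector share in each genotype.

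In WT colons Irgm1 led at 31.8 ± 17.9 FPKM (SD, n = 3), followed by Igtp at 18.2 ± 18.7, Irgm2 at 10.9 ± 6.27, Ifi47 at 10.5 ± 9.51, Iigp1 at 7.59 ± 9.16, Tgtp1 at 5.60 ± 7.36 and Tgtp2 at 3.40 ± 1.99 FPKM. Irgm1 was first in each WT library, but the ranges of all neighbours in this order overlapped. In STAT6-/- colons Igtp led at 146 ± 87.9 FPKM, followed by Irgm1 at 121 ± 56.2, Ifi47 at 111 ± 47.5, Iigp1 at 92.5 ± 77.8, Irgm2 at 70.0 ± 24.5, Tgtp1 at 61.3 ± 57.5 and Tgtp2 at 33.8 ± 30.6 FPKM. No neighbours in the STAT6-/- order differed beyond their spread. STAT6-/- replicate 2 had its own order, with Ifi47, Irgm1 and Igtp at 64.8, 63.0 and 60.1 FPKM and Iigp1 at 14.2 FPKM.

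**Figure D3:**
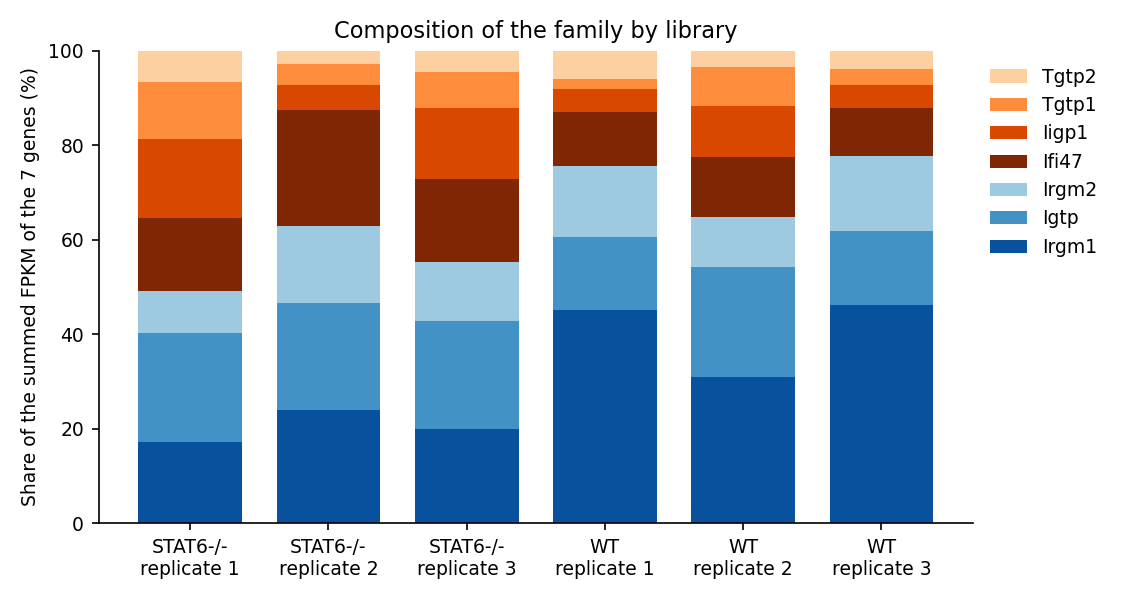
Share of each IRG gene in the summed FPKM of the 7 genes (%), by library, with GMS regulators in blue and GKS effectors in orange and brown. Irgm1 takes 45.1% and 46.1% of the sum in WT replicates 1 and 3 and 17.2% to 23.9% in the STAT6-/- libraries.

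Most counts came from 1 RefSeq transcript per gene. Iigp1 and Ifi47 had further transcripts listed. The minor Iigp1 transcript NM_001146275 had 649.5, 47.4 and 676.1 expected counts in the STAT6-/- libraries, against 73.5 in WT replicate 2, and it was not listed in WT replicates 1 and 3. The main one, NM_021792, had 9298, 771 and 4819 expected counts in STAT6-/- and 108, 880.0 and 129 in WT. Ifi47 overlaps Gm12188 and Tgtp1 overlaps Gm42074, and without a stated strand their reads cannot be told apart. The Ifi47 transcript NM_001271676 had 122, 42.1 and 105 expected counts in STAT6-/- and was listed in no WT library. The main Ifi47 transcript had 5320, 2129 and 3572 expected counts in STAT6-/- and only 148, 654.7 and 154 in WT. A minor transcript is therefore harder to detect in WT, and a difference in its share was not tested.

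IRG genes outside the 7 moved with them. Of 10 tested in the list of other IRG genes, 8 rose and none fell, where 11.4% of all tested genes were called higher. The median log2 fold change of the 10 was 2.96. The list was drawn up by name, and Gm4070 in it is annotated as a relative of the very large inducible GTPases. The smallest p were those of 9930111J21Rik2 (16.5 ± 6.74 against 1.71 ± 0.506 CPM), Gm5431 (55.7 ± 8.81 against 8.88 ± 4.67 CPM), 9930111J21Rik1 (21.4 ± 9.15 against 2.91 ± 1.13 CPM) and Gm4070, the most abundant (294 ± 181 against 47.2 ± 18.5 CPM; STAT6-/- against WT, mean ± SD, n = 3 each). Gm5431 stood at 57.2, 46.3 and 63.7 CPM in STAT6-/- and 4.91, 14.0 and 7.71 CPM in WT, with no marked drop in STAT6-/- replicate 2. Its log2 fold change was 2.65 ± 0.38 (edgeR adjusted p = 0.0112). The 2 that did not pass were Gm12250 (Irgb10, an effector; 141, 55.4 and 97.2 CPM against 2.07, 29.4 and 4.25 CPM, edgeR adjusted p = 0.0584) and Irgq, whose log2 fold change was 0.46 ± 0.16. The testis gene Irgc1 had 1 count over the STAT6-/- libraries and 2 over WT and was not tested.

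The genes lie in 3 blocks, and their neighbours allow a comparison of the same stretch of chromosome. The first block on chromosome 11 holds Irgm1, Tgtp1, Tgtp2 and Ifi47, the second holds Igtp and Irgm2, and the block on chromosome 18 holds Iigp1. Within 250 kb of a member, 7 of 8 tested IRG genes outside the 7 rose, and 3 of 21 tested genes of other kinds rose, near the 11.4% of all tested genes called higher. Those 3 were Olfr56, an olfactory receptor gene next to Ifi47 with a log2 fold change of 4.16, Mgat1, a glycosyltransferase gene with 0.69, and Larp1, an RNA-binding protein gene with 0.86. No neighbour was called lower. Olfr56 was scarce, at 5.14 ± 2.98 CPM in STAT6-/- and 0.288 ± 0.400 CPM in WT. Mgat1 stood at 104 ± 3.17 against 64.8 ± 7.57 CPM and Larp1 at 170.2 ± 19.0 against 93.8 ± 9.07 CPM.

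**Figure D4:**
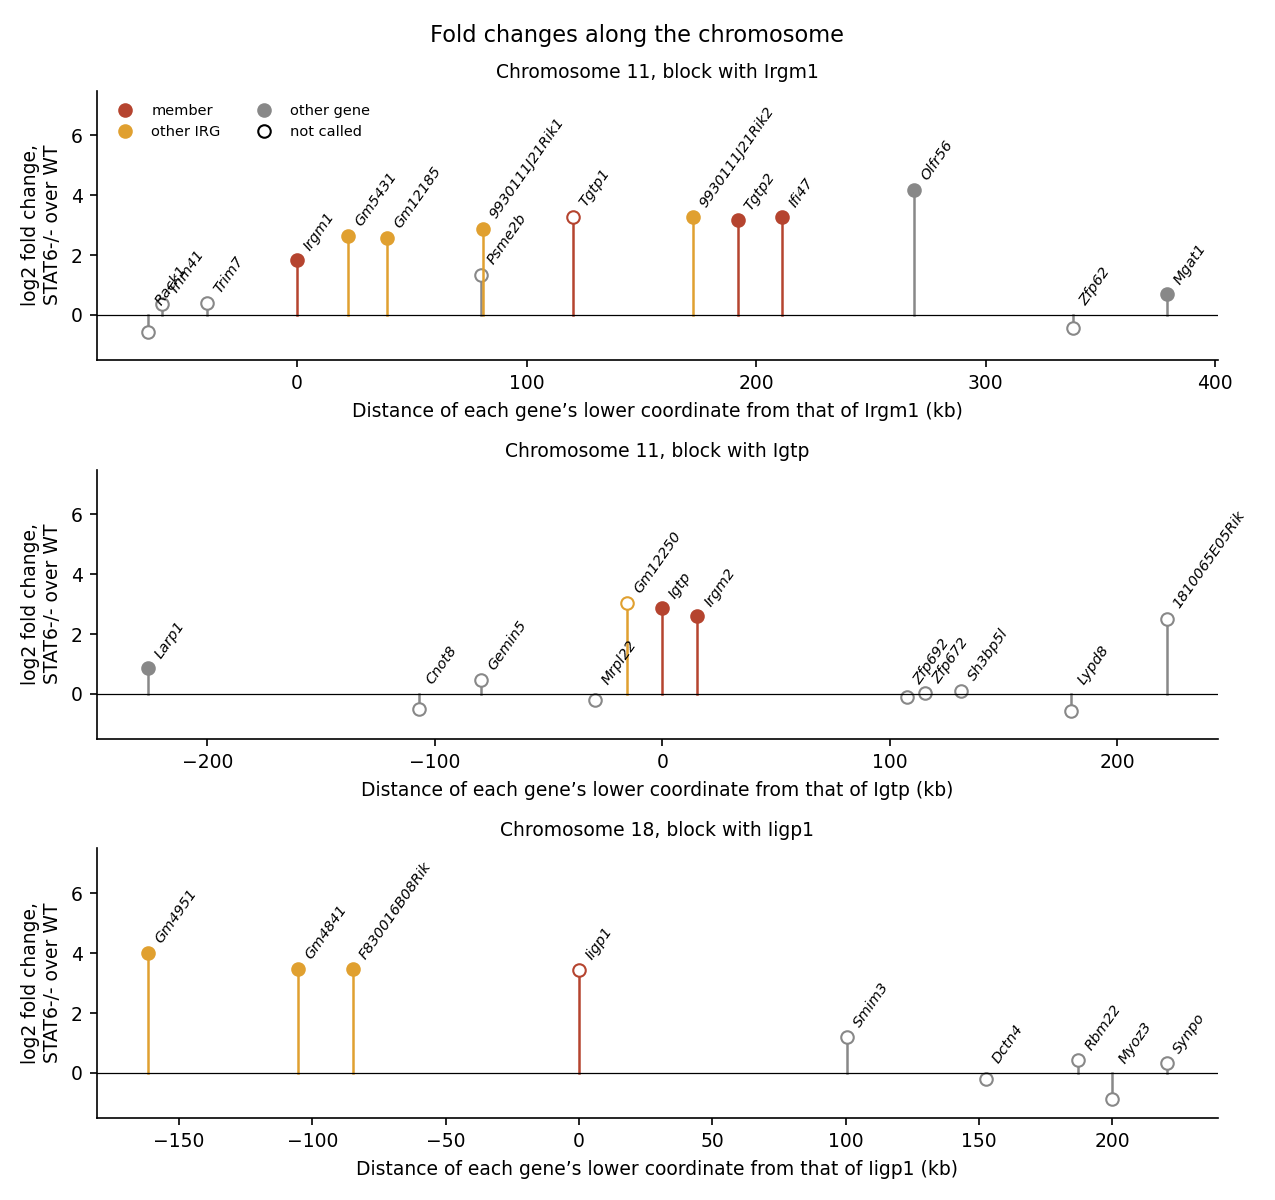
Log2 fold change (STAT6-/- over WT) of every tested gene within 250 kb of a member, against its distance in kb from the first member of each block, with open circles for genes that did not pass. IRG genes stand between 1.82 and 4.0, and most other genes lie nearer to 0, apart from Olfr56 at 4.16 and, not called, 1810065E05Rik at 2.52, Psme2b at 1.35 and Smim3 at 1.2.

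Guanylate-binding proteins (GBPs), the larger interferon-inducible GTPases that act on the same vacuoles as IRGs, showed a similar but less uniform picture. Of 11 tested, 5 rose and none fell, where 11.4% of all tested genes were called higher, with a median log2 fold change of 2.19. The count depended on single libraries, as did the share of all genes called higher, given in brackets. It was 9 without STAT6-/- replicate 2 (17.9%), 1 without STAT6-/- replicate 1 (6.81%) and 2 without STAT6-/- replicate 3 (12.5%). It was 0 without WT replicate 1 (4.25%), WT replicate 2 (0.136%) or WT replicate 3 (0.0779%). DESeq2 called 9 (18.0%). Gbp8 (24.9 ± 17.5 against 3.53 ± 0.900 CPM), Gbp4 (166 ± 119.8 against 13.0 ± 9.79 CPM), Gbp7 (142 ± 50.6 against 54.5 ± 16.1 CPM), Gbp9 and Gbp6 passed edgeR's test, with adjusted p from 0.0226 to 0.0412. Gbp2b, the most abundant, stood at 404, 239 and 480.5 CPM in STAT6-/- and 116, 389 and 128 CPM in WT (log2 fold change 0.83 ± 0.51, edgeR adjusted p = 0.264). Its WT replicate 2 was again the highest WT library and lay above STAT6-/- replicate 2. The difference in response between GBPs and IRGs was not tested.

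The interferon gamma signalling list holds the cytokine, its receptors and kinases as well as induced regulators and feedback genes. Of its 12 tested genes, 7 rose and none fell, where 11.4% of all tested genes were called higher. The median log2 fold change of the 12 was 1.79. Ifng itself, the cytokine gene, had 2.89, 0 and 0.899 CPM in the STAT6-/- libraries and no counts in WT, where a count of 0 allows up to 0.186 CPM (3 counts per library, counting error alone). It was too scarce to test. STAT6-/- replicate 2, with 0 Ifng counts, had 263 FPKM summed over the IRG genes. The WT libraries, also with 0 Ifng counts, had 43.2, 169.6 and 51.2 FPKM in replicates 1, 2 and 3. STAT6-/- replicates 1 and 3, where Ifng was counted, had 1021 and 623 FPKM.

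The receptor genes Ifngr1 and Ifngr2 and the kinases Jak1 and Jak2 had log2 fold changes between -0.29 and -0.09, and none passed. Ifngr1, the most abundant gene of the list, stood at 371 ± 56.4 against 429 ± 16.5 CPM. Several regulators of transcription rose. Stat2 (253 ± 58.4 against 38.4 ± 8.46 CPM) had the smallest p, followed by Ciita, the master regulator of MHC class II (51.6 ± 25.4 against 4.05 ± 1.60 CPM), Nlrc5, its class I counterpart (72.5 ± 37.1 against 2.96 ± 1.37 CPM), and Irf8 (200.4 ± 92.6 against 35.4 ± 10.7 CPM), with edgeR adjusted p from 0.00732 to 0.0129.

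Irf1, a factor induced by interferon gamma that acts at IRG promoters, was singled out after its values were seen. Irf1 stood at 432, 375 and 457 CPM against 227, 335 and 186 CPM, a log2 fold change of 0.76 ± 0.25 that did not pass (edgeR adjusted p = 0.0650).

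**Figure D5:**
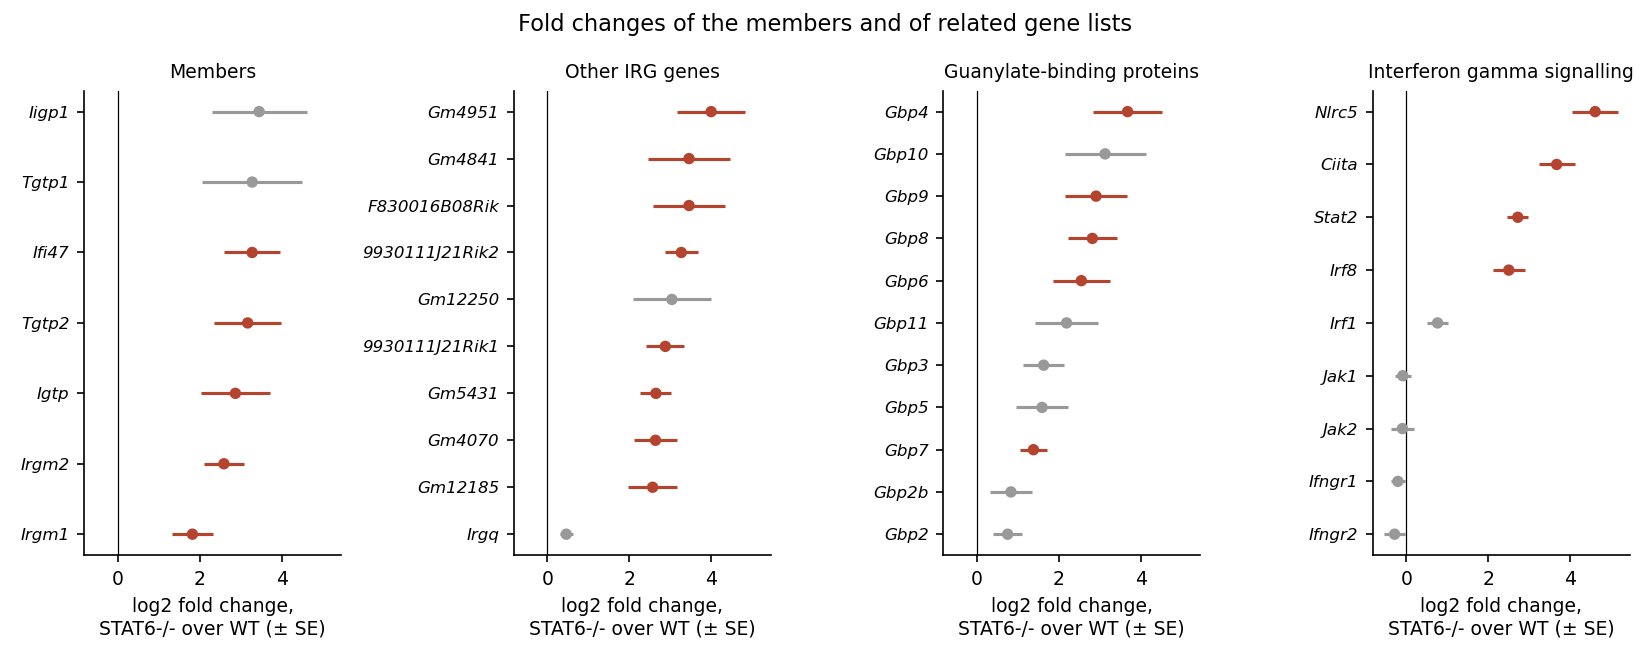
Log2 fold changes (STAT6-/- over WT, points, with SE bars) of the 7 IRG members, the other IRG genes, the guanylate-binding proteins and the interferon gamma signalling genes named in the text, with red for genes that passed and grey for those that did not. Every GTPase shown lies above 0, and the receptor and kinase genes lie just below it.

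Autophagy conjugation proteins place the IRGs and GBPs on vacuoles, and members of the GABARAP branch take part in this in mice. Of their 18 tested genes, 5 fell and 1 rose, where 11.5% of all tested genes were called lower, with a median log2 fold change of -0.16. Atg10 (2.46 ± 0.143 against 7.08 ± 1.09 CPM), Gabarapl1 (43.0 ± 3.79 against 84.6 ± 20.8 CPM), Gabarapl2 (94.5 ± 13.3 against 159 ± 11.3 CPM), Atg5 (44.3 ± 3.46 against 68.2 ± 5.70 CPM) and Map1lc3b were lower, with edgeR adjusted p from 0.0151 to 0.0241. Atg3, the conjugating enzyme, was higher at 46.1 ± 3.28 against 32.4 ± 3.09 CPM (edgeR adjusted p = 0.0409). Sqstm1, the most abundant, stood at 400.4 ± 119.7 against 335 ± 22.1 CPM and did not pass.

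Among other dynamin-like GTPases, 4 of 10 tested rose and none fell, where 11.4% of all tested genes were called higher. The median log2 fold change of the 10 was 0.34. The interferon-inducible Mx2 (23.6 ± 8.84 against 2.81 ± 1.18 CPM) and Mx1 (80.5 ± 66.9 against 3.48 ± 1.87 CPM) had log2 fold changes of 3.07 and 4.53. Mfn2, which fuses mitochondria, and Dnm2, which cuts endocytic vesicles and was the most abundant, had 0.82 and 0.57. Gvin1, a very large inducible GTPase, stood at 42.4, 6.68 and 14.2 CPM in STAT6-/- and 10.9, 19.5 and 16.8 CPM in WT and did not pass. Without WT replicate 1, 3 other IRG genes (8 with all libraries), 2 autophagy genes (6) and 2 dynamin-like GTPases (4) were called, and without STAT6-/- replicate 1, 5 other IRG genes and 1 autophagy gene. All 5 lists lost most or all of their calls without WT replicate 2 (0 to 1 called per list) or WT replicate 3 (0 called in each). Calls over all genes fell as well, from 3449 with all libraries to 1786 without STAT6-/- replicate 1. They were 1407, 31 and 18 without WT replicates 1, 2 and 3.

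The genes most like the family were found by correlating the log2 CPM of each tested gene over the 6 libraries with the members' mean pattern. In order, they were Zfp142 (Pearson r = 0.994), Rnf19b (0.994), Gbp6 (0.991), Snx3 (0.991), Apba3 (0.991), 9330175E14Rik (0.989), Gbp10 (0.988) and Gbp4 (0.986). The 6 libraries behind each r differ in genotype and depth, and r includes that difference. Their size of change varied widely. Rnf19b, an E3 ubiquitin ligase gene, stood at 209.6, 129 and 181 CPM in STAT6-/- and 59.7, 95.9 and 60.7 CPM in WT, and rose 2.40-fold (edgeR adjusted p = 0.0217). Zfp142, a zinc finger gene, had a log2 fold change of 0.40 ± 0.21 and did not pass.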

How the data were processed

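RNA of 6 DSS-treated mouse colon samples was measured by sequencing, 1 library per sample. The expected counts, deposited by the authors per RefSeq transcript, are estimated reads without normalization, per the file headers. FPKM, also deposited, adjusts for transcript length and depth. The submitters' processing notes list mm10, RSEM 1.2.12 and Bowtie2 2.2.5. Strandedness is not given in the sources used here. Transcripts with FPKM of at least 0.01 are listed, and one missing from a library was taken as 0.

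Counts were summed per gene and rounded. Of 28238 transcripts, RefSeq (GRCm38.p6, on which mm10 is based) named 27986 and GENCODE M21 a further 149, and 103, with 0.167% of counts, were kept under their accession. Libraries held 17122315 to 19555450 expected counts. The test was that of edgeR 4.0.16 in R 4.3.3 (quasi-likelihood F test, TMM factors, filterByExpr, robust), with Benjamini-Hochberg adjustment over 15066 genes and a threshold of 0.05. The SE is the log2 fold change over the square root of F. The procedure was tested on simulated data. Alternatives used RLE, library size or upper quartile scaling, other filters, DESeq2 1.42.0, limma 3.58.1 (voom, or log2 FPKM plus 1 or 0.1), a replicate block, abundant genes left out, Tgtp1 and Tgtp2 summed, and each library left out.

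The members and lists were chosen with earlier results of these data known. For each list the text names the 4 smallest p, the most abundant gene and, where 5 or fewer were called, all of these. The motifs and their spacing, Irf1, Ifng, Ifngr2, Jak1, Jak2, Map1lc3b, Atg3, Gvin1, Gm12250, Irgq, Irgc1, Psme2b, Smim3 and 1810065E05Rik were chosen after values or sequences were seen. Genes like the members are the 8 with the highest Pearson r. Results of some items are not reported here. Figures were drawn with matplotlib 3.10.9.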

Additional observations from a re-analysis of the deposited data

How the results depend on the processing

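The count of IRG members called was 5 with all libraries and ran from 0 to 7 with 1 library left out. Under 12 of 13 other settings it was between 4 and 7. Deviations from the group means correlated at 0.023, 0.0445 and 0.134 for equal replicate numbers, and at -0.109 to 0.0544 for unequal ones. STAT6-/- replicates 1 and 3 each correlated best with the WT library of the same number, and STAT6-/- replicate 2 with WT replicate 1. These low values do not settle whether the replicate numbers pair the libraries. With a replicate block the count was 2 (Irgm2 and Ifi47), 0 GBPs, 5 other IRG genes and 2 dynamin-like GTPases were called, and the block left 1219 genes called higher and 1445 lower. Over all genes, 3449 were called with all libraries and 18 to 5190 with 1 left out, 31 and 18 of these without WT replicates 2 and 3, where 4370 and 4285 genes had an unadjusted p under 0.05. The log2 fold change of Stat6 ran from -1.06 to -0.85 with 1 library left out. No member's log2 fold change reversed in any of these refits. Ifi47 and Irgm2 passed under all 13 other settings. Igtp lost its call with no filter (adjusted p = 0.0575), and Tgtp2 with limma-voom (0.0790, with 3 GBPs called) and log2 FPKM plus 1 (0.0520). Scalings moved the median of all genes by less than 0.1 on the log2 scale. With 17122315 counts or more per library, depth limits Ifng and Olfr56 rather than the members, which had at least 502 counts per genotype.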

Other observations

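WT replicate 2 was examined further after its IRG levels were seen. Among 12053 genes whose mean log2 CPM reached 2, the 5 with the largest excess over the mean of WT replicates 1 and 3 were genes of red blood cells. Hba-a2, a haemoglobin gene, led at 15.5-fold, with 445 CPM in WT replicate 2 against 23.3 and 34.2 CPM in WT replicates 1 and 3, and Alas2, the first enzyme of erythroid haem synthesis, was 13.7-fold higher. Tgtp1, Gm12250, Iigp1, the interferon-induced chemokine gene Cxcl10 and Gbp10 followed. All 7 members were among the first 26 genes of this order. Cxcl10 stood at 27.5, 1.93 and 14.0 CPM in STAT6-/- replicates 1, 2 and 3, against 0.887, 12.2 and 2.72 CPM in WT replicates 1, 2 and 3, so that it too was lower in STAT6-/- replicate 2 than in WT replicate 2. The haemoglobin genes did not share the IRG pattern in STAT6-/- colons, where Hba-a2 stood at 7.61, 13.1 and 52.9 CPM.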
